A study of Mus musculus with 6 samples.

Results

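The genes described here are 42 mouse genes of homologous recombination, the Fanconi anaemia pathway, the DNA damage checkpoint and DNA end joining. They were chosen by symbol, with earlier results of these data known. Each was read by the probe set, mapped to exactly 1 member symbol, that had the highest mean over the 6 arrays. Of the 42 genes 40 had such a probe set, out of 18193 genes tested; Xrcc2 and Rbbp8 were not analysed here. By role, 15 of the 40 belonged to recombination, 10 to the Fanconi pathway, 9 to the checkpoint and 6 to end joining. The cells were splenic germinal centre B cells, enriched with magnetic beads from mice given sheep red blood cells, and Affymetrix mouse 430 2.0 arrays read their RNA as log2 expression levels. ImHABCL6/Uchl1 mice (3 arrays) carried a Uchl1 transgene, a deubiquitinating enzyme best known from neurons, together with ImHABCL6. ImHABCL6 mice (3 arrays), whose tagged BCL6 is driven by the immunoglobulin heavy-chain locus, carried ImHABCL6 alone and are called controls below. Both genotypes therefore carried the BCL6 allele and received the antigen, and no group without them was analysed here. The sources used here do not give the promoter of the Uchl1 transgene or the age of the mice.

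Homologous recombination repairs a broken chromosome from its sister copy: the ends are trimmed, a recombinase filament is loaded with the help of the BRCA proteins, and the joined molecules are resolved by helicases and topoisomerases. The Fanconi proteins recognise strands that are chemically cross-linked and hand the lesion to the same machinery, while the checkpoint kinases ATM and ATR sense breaks and stalled forks and hold the cell cycle. End joining seals breaks without a template. Germinal centre B cells divide fast and mutate and break their own immunoglobulin genes, so all of these routes are active in them, and BCL6 is known to repress some checkpoint genes there. Many recombination, Fanconi and fork checkpoint genes are also transcribed mostly in S phase.

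Most of the genes read slightly lower in ImHABCL6/Uchl1 cells, and no single gene passed the multiple-testing threshold. Of the 40 genes 36 were lower and 4 higher, where 49.4% of all genes tested were lower and 50.6% higher. A difference of at least 0.25 downward on the log2 scale was seen for 14 of the 40 and for 11.4% of all genes. The genes were chosen with earlier results of these data known, so such shares describe the list and test nothing. The median log2 difference (ImHABCL6/Uchl1 minus control) was -0.17, a 1.13-fold lower level, against 0.0029 over all genes. The share of lower genes rose with signal: among the 9096 genes above the median level 61.6% were lower, with a median of -0.057. Of the 40 genes 38 were among these, and 35 of the 38 were lower, with a median of -0.18. Differences of the 40 genes ran from -0.59 for Bard1 to 0.16 for Xrcc4. The classes were not alike in size: the median was -0.29 for recombination (14 of 15 lower), -0.17 for Fanconi (10 of 10), -0.17 for checkpoint (8 of 9) and -0.042 for end joining (4 of 6). Whether the classes differ from each other was not tested.

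In limma's moderated test with Benjamini-Hochberg adjustment over all genes, 0 of the 40 had an adjusted p under 0.05, as did 0 of 18193 genes (0.0%). At an unadjusted p under 0.05, 8 of the 40 were lower, where 3.85% of all genes were lower at that level, and 0 were higher, where the share over all genes was 1.09%. The 8 were Bard1, Brca1, Blm, Rad54b and Rad51ap1 in recombination, Fancc and Fanci in the Fanconi class, and Chek2 in the checkpoint. For 10 of the 40, these 8 with Fancd2 and Trp53bp1, all 3 ImHABCL6/Uchl1 arrays lay below all 3 controls, against 5.49% of all genes; the opposite arrangement held for 0 of the 40 and 3.95% of all genes. An exact two-sided permutation test gives each of these 10 a p of 0.1, the smallest that 3 arrays against 3 allow. The count of 8 moved with single arrays and settings, as did the count over all genes in either direction (in brackets, 898 as reported). It was 3 (387) without control replicate 3, 5 (493) without control replicate 2 and 4 (787) without ImHABCL6/Uchl1 replicate 3. It was 12 (1330) without ImHABCL6/Uchl1 replicate 1, 4 (962) after quantile normalization and 22 (2819) with array weights. Those weights were 0.51, 0.30 and 3.30 for ImHABCL6/Uchl1 replicates 1 to 3 and 0.92, 1.96 and 1.12 for the controls. The weighted fit thus leaned mostly on ImHABCL6/Uchl1 replicate 3 within its group.

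**Figure D1:**
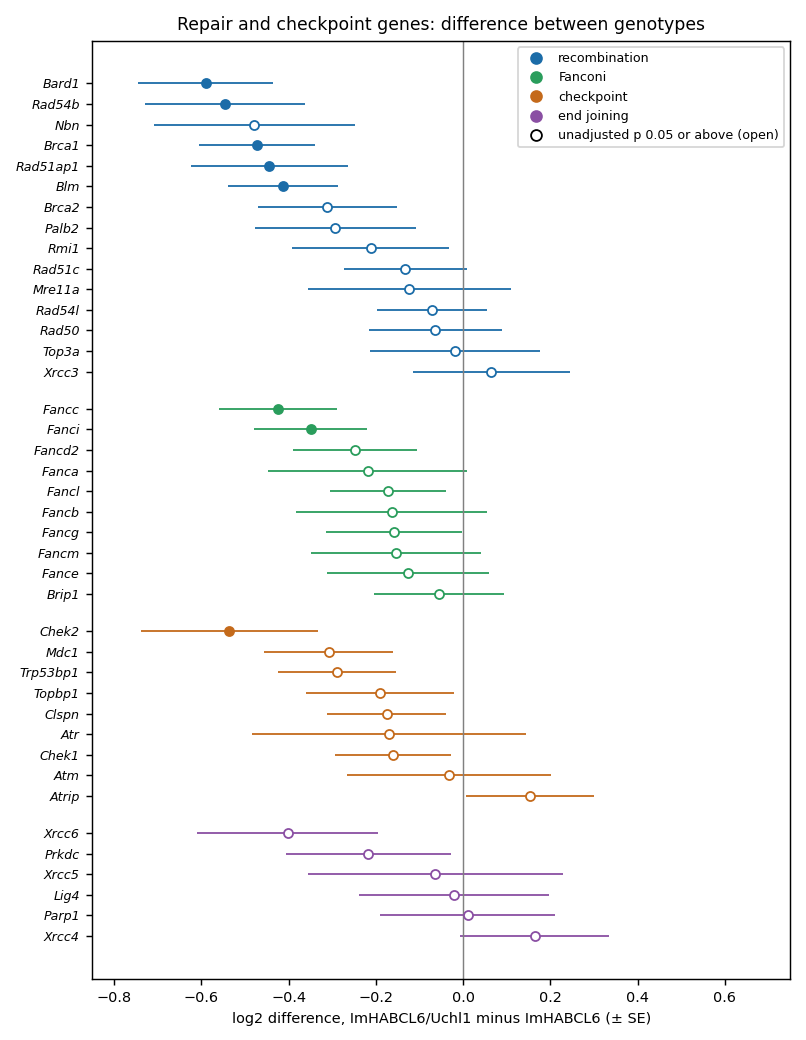
Log2 difference between genotypes (horizontal axis, ImHABCL6/Uchl1 minus ImHABCL6, with the standard error of limma) for the 40 genes, grouped by class, filled where the unadjusted p was under 0.05. All 8 filled points lie to the left of 0, and they run from -0.59 (Bard1) to -0.35 (Fanci).

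Because these genes leaned the same way, the 250 bases before the annotated start are shown for 4 of them. These are Bard1, Brca1 and Blm, the 3 recombination genes of smallest unadjusted limma p, and Chek2, the checkpoint gene of smallest p. Rad54b (-0.55), Nbn (-0.48), Rad51ap1 (-0.44) and Fancc (-0.42) had lower differences than Blm (-0.41) and are not shown. The sequences are RefSeq's (GRCm38.p6), read 5′ to 3′ on the strand of the gene. Capitals mark an E2F-type motif, the binding motif of the S-phase regulators of that name (TTTGGCGC, TTTCCCGC, TTTGCCGC or TTTCGCGC), and the CCAAT box, both searched on both strands.
Brca1, chr11:101551956-101552205, minus strand: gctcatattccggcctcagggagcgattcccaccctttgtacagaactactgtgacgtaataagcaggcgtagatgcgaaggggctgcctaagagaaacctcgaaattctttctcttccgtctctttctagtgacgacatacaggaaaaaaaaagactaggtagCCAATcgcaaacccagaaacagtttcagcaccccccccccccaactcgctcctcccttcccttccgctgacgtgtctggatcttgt
Bard1, chr1:71102973-71103222, minus strand: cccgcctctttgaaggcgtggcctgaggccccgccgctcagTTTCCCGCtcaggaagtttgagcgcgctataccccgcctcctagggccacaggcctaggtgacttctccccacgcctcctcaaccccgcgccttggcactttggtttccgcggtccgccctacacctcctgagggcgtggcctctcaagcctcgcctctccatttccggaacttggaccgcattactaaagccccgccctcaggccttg
Blm, chr7:80534999-80535248, minus strand: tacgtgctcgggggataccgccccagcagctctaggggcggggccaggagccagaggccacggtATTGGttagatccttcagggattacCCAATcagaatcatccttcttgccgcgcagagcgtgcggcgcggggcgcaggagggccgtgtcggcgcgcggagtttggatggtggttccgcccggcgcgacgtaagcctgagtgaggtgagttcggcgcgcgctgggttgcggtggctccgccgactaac
Chek2, chr5:110839733-110839982, plus strand: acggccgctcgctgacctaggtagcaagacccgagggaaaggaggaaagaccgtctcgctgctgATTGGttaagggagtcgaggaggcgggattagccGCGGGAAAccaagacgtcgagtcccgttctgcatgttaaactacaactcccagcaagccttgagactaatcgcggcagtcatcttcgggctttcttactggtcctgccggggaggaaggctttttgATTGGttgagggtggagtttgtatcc
Bard1 holds TTTCCCGC beginning 209 bases before its start. Chek2 holds the same letters on the opposite strand, 152 bases before its start, and CCAAT on the opposite strand 186 and 26 bases before it. Brca1 holds a single CCAAT at 86 bases, and Blm has 1 on each strand, at 161 bases (forward) and 186 bases (opposite). In the windows of the same length, 34 of the 40 genes matched the RefSeq table, and 7 of them (20.6%) held an E2F-type motif, against 2.16% of 27025 genes with a window and 3.15% of the 14452 such genes that were also tested on the arrays. The 7 were Bard1, Brca2, Chek2, Fancg, Mdc1, Topbp1 and Xrcc6, with differences from -0.59 (Bard1) to -0.16 (Fancg). The CCAAT box was in 19 of 34 (55.9%), against 37.5% and 39.4%. Differences of its carriers ran from -0.54 (Chek2) to 0.15 (Atrip), and Xrcc3 (0.064) was also higher. Most of the 40 genes were lower with or without a motif, and whether carriers differ from the rest was not tested. The motifs were chosen after the values were seen, and a match of letters is a description and not a site.

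Among the recombination genes, both subunits of the BRCA1-BARD1 ubiquitin ligase read lower in ImHABCL6/Uchl1 cells. Bard1, the partner that stabilises BRCA1, read 6.60, 6.16 and 6.40 on the log2 scale in ImHABCL6/Uchl1 replicates 1 to 3, against 7.05, 7.05 and 6.83 in the controls. The groups were separate, and the log2 difference of -0.59 (SE 0.16, limma unadjusted p = 0.00524, adjusted p = 0.854) corresponds to a 1.51-fold lower level. Brca1, which directs end trimming and recombinase loading, read 10.04, 10.03 and 9.94 in ImHABCL6/Uchl1 cells, against 10.37, 10.41 and 10.65 in controls. Its 3 ImHABCL6/Uchl1 arrays were close together, at 10.005 ± 0.052, against 10.48 ± 0.15 in controls (SD, n = 3 each), and the difference was -0.47 (SE 0.13, limma unadjusted p = 0.00738, adjusted p = 0.877). The other 3 Brca1 probe sets, all of lower signal, differed by -0.76, -0.32 and -0.76. Neither gene's difference changed by more than 1.5 times under any alternative tried.

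Blm, the Bloom syndrome helicase that dissolves joined recombination intermediates, read 8.84, 8.90 and 8.996 in ImHABCL6/Uchl1 cells, against 9.24, 9.30 and 9.43 in controls. The gap between the groups was wider than the spread within either, and the difference was -0.41 (SE 0.13, limma unadjusted p = 0.0115, adjusted p = 0.945). Its partners in the dissolving complex differed less. Rmi1, the scaffold, differed by -0.21, with a 95% interval from -0.63 to 0.20, and Top3a, the topoisomerase, by -0.018 (-0.47 to 0.43). Both overlapped between genotypes.

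The RAD54 pair, motor proteins that remodel the recombinase filament, gave unlike values. Rad54b read 6.98, 6.51 and 6.31 in ImHABCL6/Uchl1 cells, against 7.15, 7.09 and 7.19 in controls. The controls were tight, ImHABCL6/Uchl1 replicate 1 was nearest to them, and the difference was -0.55 (SE 0.18, limma unadjusted p = 0.0178, adjusted p = 0.983). Rad54l differed by -0.072, with an interval from -0.36 to 0.22, and overlapped between genotypes; the difference between the 2 genes was not tested. Rad51ap1, which stimulates strand invasion, read 9.82, 9.94 and 9.33 in ImHABCL6/Uchl1 cells, against 10.05, 10.10 and 10.25 in controls. Replicate 3 was the lowest by a wide margin, and the difference of -0.44 (SE 0.18, limma unadjusted p = 0.0393, adjusted p = 0.992) was -0.26 without it and -0.70 with array weights. The other 3 Rad51ap1 probe sets differed by -0.43, -0.53 and -0.30.

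The remaining recombination genes overlapped between genotypes. Brca2, which loads the recombinase, differed by -0.31 (95% interval -0.68 to 0.055), and Palb2, which bridges BRCA1 and BRCA2, by -0.29 (-0.72 to 0.13). Weighting the arrays gave Palb2 -0.57, and leaving out ImHABCL6/Uchl1 replicate 3 gave -0.098. Of the break-sensing complex, Nbn differed by -0.48 (-1.01 to 0.053), with ImHABCL6/Uchl1 replicate 2 lowest at 7.83 and a difference of -0.23 without it. Its nuclease Mre11a differed by -0.12 (-0.66 to 0.41) and its ATPase Rad50 by -0.064 (-0.42 to 0.29). Of the recombinase paralogues, Rad51c differed by -0.13 (-0.46 to 0.19) and Xrcc3 by 0.064 (-0.35 to 0.48), the 1 recombination gene that was higher. Among the 10 recombination genes whose genotypes overlapped, every interval included 0, and only those of Rad54l and Xrcc3 stopped short of the -0.41 seen for Blm.

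**Figure D2:**
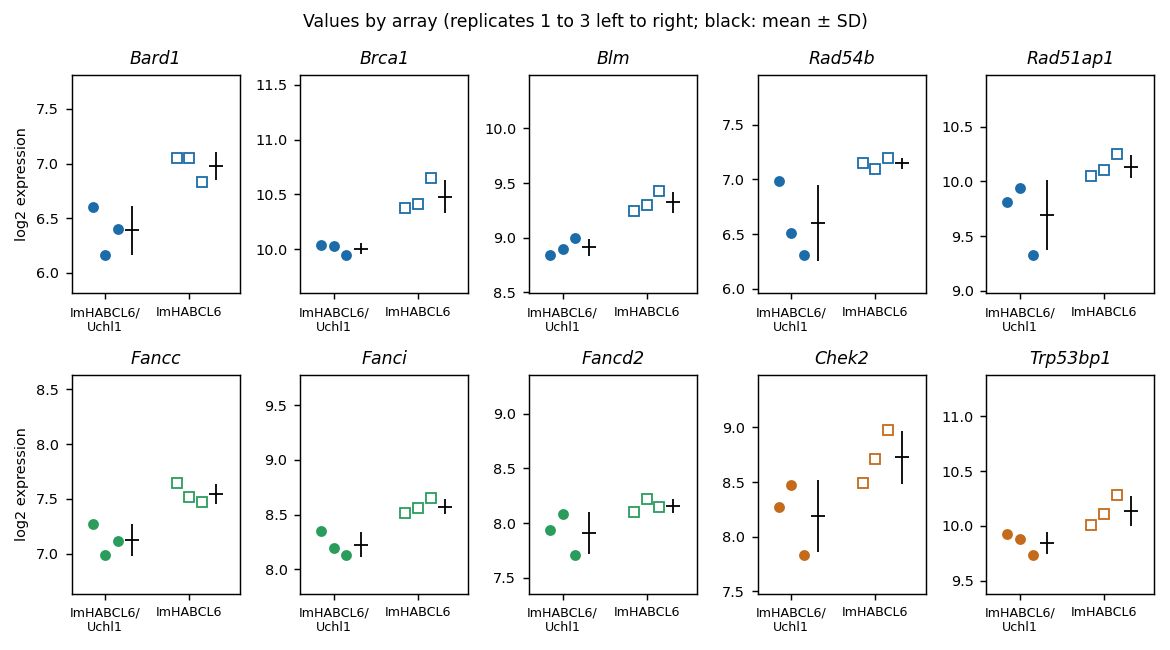
Log2 expression (vertical axis, the same span in each panel) on each array for the 10 genes whose genotypes did not overlap, ImHABCL6/Uchl1 as filled circles and ImHABCL6 as open squares, with mean ± SD in black. Brca1 and Blm show tight ImHABCL6/Uchl1 arrays, whereas Rad51ap1 and Chek2 have replicate 3 far below the others, at 9.33 and 7.83.

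All 10 Fanconi genes were lower in ImHABCL6/Uchl1 cells, 2 of them at an unadjusted p under 0.05. Fancc, a subunit of the Fanconi core ubiquitin ligase, read 7.27, 6.98 and 7.11 in ImHABCL6/Uchl1 cells, against 7.65, 7.52 and 7.47 in controls. The groups were separate, with a difference of -0.42 (SE 0.14, limma unadjusted p = 0.014, adjusted p = 0.983). Averaging its probe sets gave -0.22, since the other 2 differed by -0.18 and -0.070. The core ubiquitin ligase acts on the pair FANCI and FANCD2, whose modification marks the lesion. Fanci read 8.35, 8.20 and 8.13 in ImHABCL6/Uchl1 cells, against 8.51, 8.56 and 8.65 in controls, a difference of -0.35 (SE 0.13, limma unadjusted p = 0.0264, adjusted p = 0.983). Its second probe set, at a mean of 4.14, differed by -0.043, and the mean of both gave -0.20. Fancd2 read 7.94, 8.08 and 7.71 in ImHABCL6/Uchl1 cells, against 8.10, 8.22 and 8.15 in controls. ImHABCL6/Uchl1 replicate 2 lay just under the lowest control, and the difference was -0.25 (SE 0.14, limma unadjusted p = 0.119, adjusted p = 0.998). It was -0.15 without replicate 3 and -0.14 after quantile normalization.

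The other core subunits Fanca (-0.22), Fancb (-0.16), Fance (-0.13), Fancg (-0.16) and the ligase Fancl (-0.17) overlapped between genotypes, as did Fancm, the translocase that recruits the core (-0.15), and Brip1, the BRCA1-bound helicase (-0.056). Fanca, Fancb and Fancm had a similar shape, with ImHABCL6/Uchl1 replicate 3 far below every other array (8.08, 6.66 and 7.05) and replicate 1 above every control (8.97, 7.55 and 7.77). Without replicate 3 these 3 genes differed by 0.054, 0.081 and 0.044. The Fanconi median was -0.29 without ImHABCL6/Uchl1 replicate 1, -0.25 without its replicate 2 and -0.11 without its replicate 3. It was -0.41 with array weights, which gave replicate 3 the largest weight.

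In the checkpoint class the effector kinase Chek2 and the mediators of break signalling had the lowest differences on the probe sets used. The apical kinases Atm and Atr overlapped widely between genotypes. Chek2, the kinase that ATM activates, read 8.27, 8.47 and 7.83 in ImHABCL6/Uchl1 cells, against 8.49, 8.71 and 8.98 in controls. ImHABCL6/Uchl1 replicate 2 lay just under the lowest control, and the difference was -0.54 (SE 0.20, limma unadjusted p = 0.0298, adjusted p = 0.983); it was -0.36 without replicate 3. Trp53bp1, a chromatin reader at breaks that favours end joining over trimming, read 9.93, 9.88 and 9.73 in ImHABCL6/Uchl1 cells, against 10.01, 10.11 and 10.28 in controls. Its difference was -0.29 (SE 0.14, limma unadjusted p = 0.066, adjusted p = 0.998), and -0.067 when its 6 probe sets were averaged. Mdc1, the scaffold that spreads the break signal, read 8.63, 8.36 and 8.31 in ImHABCL6/Uchl1 cells, against 8.60, 8.74 and 8.88 in controls. Replicate 1 lay within the controls, and the difference was -0.31 (SE 0.15, limma unadjusted p = 0.0699, adjusted p = 0.998).

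In the fork branch of the checkpoint, Chek1, Clspn and Topbp1 were lower by smaller amounts on the probe sets used. Chek1, the effector kinase of ATR, differed by -0.16 (95% interval -0.47 to 0.15), its adaptor Clspn by -0.17 (-0.49 to 0.14) and the ATR activator Topbp1 by -0.19 (-0.58 to 0.20). Without ImHABCL6/Uchl1 replicate 3, Clspn differed by -0.082 and Topbp1 by -0.062, and without control replicate 3 Chek1 differed by -0.098. The other Chek1 probe sets, all of lower signal, differed by -0.42, -0.45, -0.0064 and -0.12, in falling order of signal. The size of its difference thus depended on the probe set. Atr itself differed by -0.17 with the widest interval of the class (-0.90 to 0.56), having read 7.88, 6.69 and 7.40 in ImHABCL6/Uchl1 cells, against 7.94, 7.29 and 7.25 in controls. Atm differed by -0.033 (-0.57 to 0.51), and Atrip, the partner of ATR, by 0.15 (-0.19 to 0.49), the 1 checkpoint gene that was higher. The median of the class was -0.32 without ImHABCL6/Uchl1 replicate 1, -0.27 without control replicate 2, -0.36 with an erythroid covariate and -0.067 when probe sets were averaged.

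End joining genes showed no common direction. Xrcc6, a subunit of the Ku ring that caps broken ends, read 8.52, 7.77 and 8.34 in ImHABCL6/Uchl1 cells, against 8.79, 8.56 and 8.50 in controls. Replicate 2 was the lowest array, and the difference of -0.40 (SE 0.21, limma unadjusted p = 0.0883, adjusted p = 0.998) was -0.18 without it. Prkdc, the kinase that Ku recruits, read 8.83, 8.55 and 8.10 in ImHABCL6/Uchl1 cells, against 8.76, 8.71 and 8.66 in controls, a difference of -0.22 (SE 0.19, limma unadjusted p = 0.286, adjusted p = 0.998). Replicate 1 was above every control, and without replicate 3 the difference was -0.022. Xrcc4, the partner of the ligase, was the highest of all 40 differences: it read 6.82, 7.24 and 7.01 in ImHABCL6/Uchl1 cells, against 6.97, 7.00 and 6.60 in controls, a difference of 0.16 (SE 0.17, limma unadjusted p = 0.365, adjusted p = 0.998). It was 0.056 without ImHABCL6/Uchl1 replicate 2 and 0.036 without control replicate 3.

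The other Ku subunit Xrcc5 differed by -0.064 (95% interval -0.74 to 0.61), and the ligase Lig4 by -0.020 (-0.52 to 0.48). Parp1, the break sensor that makes poly(ADP-ribose), differed by 0.010 (-0.45 to 0.47), and its other 3 probe sets by 0.15, 0.056 and 0.31. In ImHABCL6/Uchl1 replicate 1, 4 of the 6 end joining genes lay above every control, and in replicate 2, 5 of the 6 lay below every control. The sign of the class median turned with 4 alternatives, to 0.085 without ImHABCL6/Uchl1 replicate 2, 0.0061 without its replicate 3, 0.025 without control replicate 1 and 0.042 after quantile normalization. It was -0.28 without ImHABCL6/Uchl1 replicate 1 and -0.17 without control replicate 3.

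**Figure D3:**
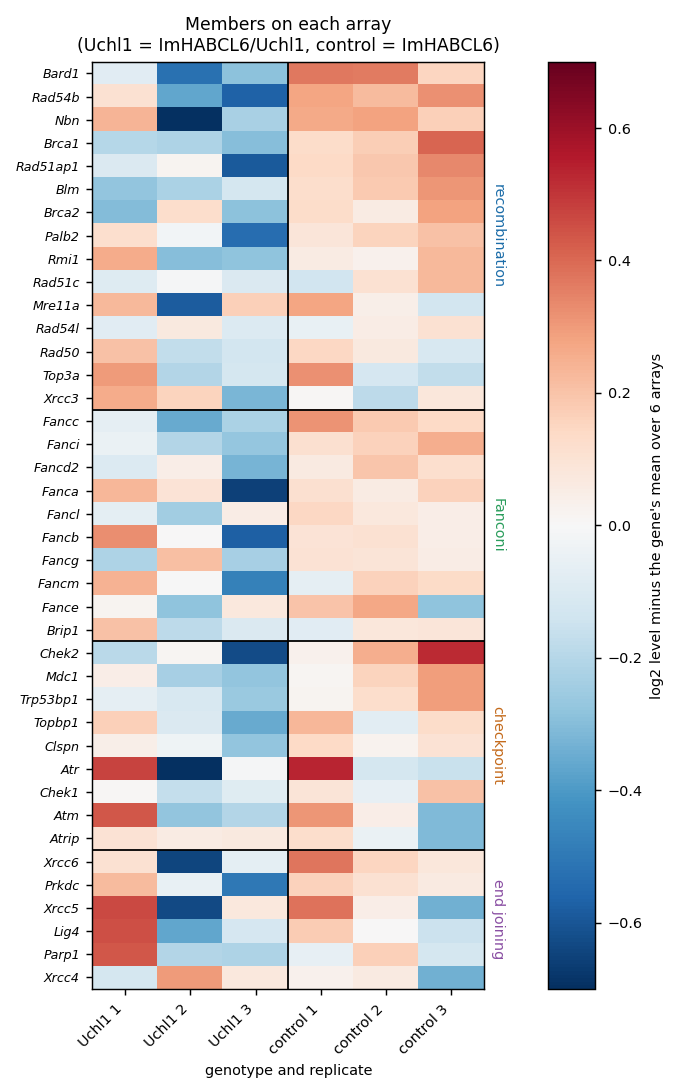
Log2 level of each of the 40 genes on each array, minus the gene's mean over the 6 arrays (colour, red above and blue below), with ImHABCL6/Uchl1 arrays left of the line and controls right of it. ImHABCL6/Uchl1 replicates 2 and 3 are mostly blue, with means over the 40 genes of -0.18 and -0.23, whereas replicate 1 (0.092) has many red cells, above all in end joining (0.26).

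The 3 ImHABCL6/Uchl1 mice did not contribute alike. Averaged over the 40 genes, each centred on its mean over the arrays, the level was 0.092, -0.18 and -0.23 in ImHABCL6/Uchl1 replicates 1 to 3, against 0.14, 0.096 and 0.078 in the controls. Replicate 1 thus lay between the lowest and the second control. It was the highest of its group for 29 of the 40 genes, where it was the highest for 36.7% of all genes. Replicate 2 was below every control for 30 of the 40 genes (35.6% of all genes) and replicate 3 for 29 (27.7% of all genes), while replicate 1 was below every control for 14 (24.8%) and above every control for 12 (30.0%).

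The classes differed in where replicate 1 lay. Recombination genes averaged 0.039, -0.20 and -0.25 in ImHABCL6/Uchl1 cells, against 0.14, 0.11 and 0.16 in controls, and Fanconi genes 0.054, -0.091 and -0.27, against 0.0999, 0.14 and 0.075; neither class overlapped between genotypes. Checkpoint genes averaged 0.11, -0.17 and -0.22 in ImHABCL6/Uchl1 cells, against 0.17, 0.034 and 0.085 in controls, and end joining genes 0.26, -0.27 and -0.13, against 0.18, 0.089 and -0.13. Both of these overlapped. Without replicate 1, the median was -0.31 and 38 of the 40 genes were lower, and without replicate 2 or 3 it was 28 or 30 of the 40, with medians of -0.19 and -0.12.

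Other genes of the same routes, from a list of 71 of which 66 were measured, leaned the same way by like amounts. Of the 66, 53 were lower and 13 higher, with a median difference of -0.17, and 0 passed the adjusted threshold. At an unadjusted limma p under 0.05, 4 were lower (6.06%, against 3.85% of all genes) and 0 higher (against 1.09% of all genes). All 3 ImHABCL6/Uchl1 arrays lay below all 3 controls for 12 of the 66 (18.2%, against 5.49% of all genes). The opposite held for 2 of the 66, against 3.95% of all genes. Aplf, an end joining factor that binds poly(ADP-ribose), read 6.88, 7.19 and 7.24 in ImHABCL6/Uchl1 cells, against 7.67, 7.75 and 7.63 in controls, a difference of -0.58 (SE 0.14, limma unadjusted p = 0.00379, adjusted p = 0.854). Ube2t, the conjugating enzyme that works with the Fanconi ligase, read 9.28, 8.95 and 8.70 in ImHABCL6/Uchl1 cells, against 9.37, 9.58 and 9.65 in controls, a difference of -0.55 (SE 0.18, limma unadjusted p = 0.0133, adjusted p = 0.983). The helicases Mcm8 (-0.38) and Wrn (-0.35, the Werner syndrome gene) followed. Of the higher genes the nuclease subunit Ercc1 had the smallest unadjusted p (0.24, SE 0.12, limma unadjusted p = 0.089, adjusted p = 0.998).

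**Figure D4:**
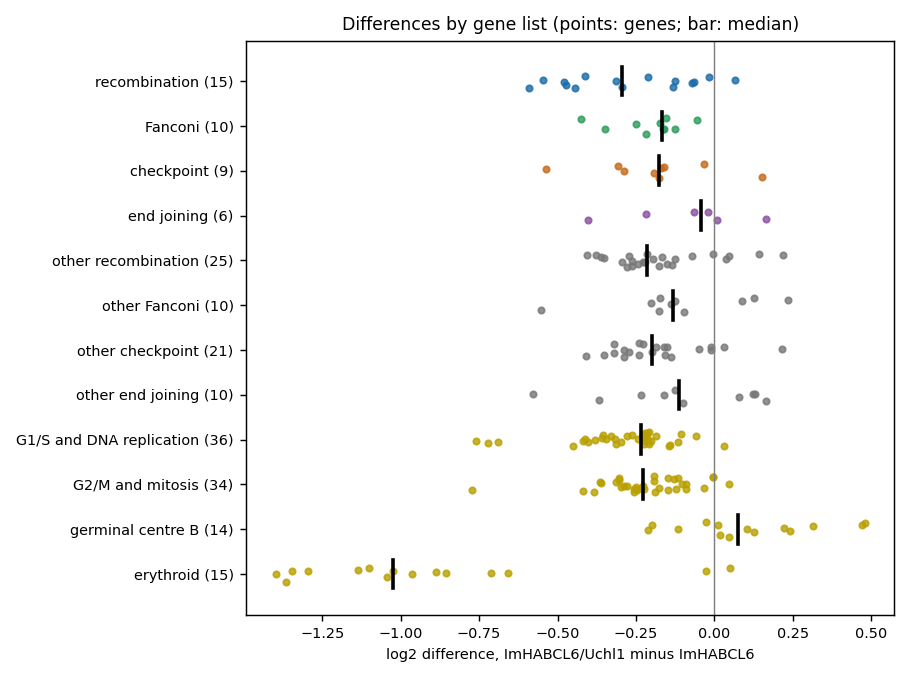
Log2 differences between genotypes (horizontal axis, ImHABCL6/Uchl1 minus ImHABCL6) for single genes (points) by list, with the list's median as a bar and the number of genes in brackets. Recombination (-0.29), G1/S (-0.24) and G2/M genes (-0.23) have similar medians, end joining (-0.042) lies near 0, and erythroid markers (-1.02) lie far to the left.

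The arrays differed in other gene lists as well, and their part in the results above was not tested. Markers of the S phase and of mitosis leaned down in ImHABCL6/Uchl1 cells: 35 of 36 G1/S and DNA replication genes were lower (median -0.24) and 33 of 34 G2/M genes (median -0.23). For 21 of the 36 G1/S genes all 3 ImHABCL6/Uchl1 arrays lay below all 3 controls. That held for 5 of the 34 G2/M genes, 10 of the 40 genes described here and 5.49% of all genes. At an unadjusted limma p under 0.05, 12 of the 36 G1/S genes and 5 of the 34 G2/M genes were lower. So were 8 of the 40 genes and 3.85% of all genes. Centred as above, the G1/S genes averaged -0.17, -0.19 and -0.081 in ImHABCL6/Uchl1 replicates 1 to 3, against 0.13, 0.11 and 0.19 in controls, so replicate 1 was low there. The G2/M genes averaged -0.030, -0.13 and -0.17 in the same replicates, against 0.014, 0.11 and 0.21 in controls. There replicate 1 was the highest of its group and replicate 3 the lowest, the order seen for the 40 genes. In RNA from whole preparations, fewer cells of a type or phase and less RNA per cell cannot be told apart. Of 15 measured red-cell markers 14 were lower, with a median of -1.02, and their mean level was between 9.04 and 10.86 in ImHABCL6/Uchl1 arrays, with replicate 1 lowest, and between 10.52 and 11.46 in controls. With that mean as a covariate the median of the 40 genes was -0.36, that of end joining -0.41, and 37 were lower. Over the 6 arrays the red-cell markers had a median level of 10.95 and a median percentile among all genes of 94.6. Car2 and Slc4a1 averaged 13.6 and 13.4, and Hba-a1 4.19. None of these markers can be called absent, since the arrays give no detection calls.

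Germinal centre and B-cell markers had a median level of 10.97 over the 6 arrays, close to the 10.95 of the red-cell markers. Among them the B-cell antigen Ms4a1 averaged 13.7, the germinal centre signalling regulator Rgs13 11.7 and Pax5 8.47. Bcl6 averaged 11.3, but both genotypes carried the BCL6 allele, so its level cannot mark the cell type here. Of 14 germinal centre and B-cell markers 4 were lower and 10 higher (median 0.076), and of 7 follicular B-cell markers 0 were lower (median 0.36). Neutrophil markers stood out in control replicate 1, at a mean of 6.69 against 5.21 to 5.63 on the other 5 arrays; without that control the median of the 40 genes was -0.17. Macrophage markers stood out in ImHABCL6/Uchl1 replicate 3, at a mean of 6.12 against 5.36 to 5.64 on the other 5 arrays, and 2 of the 8 were lower (median 0.15); without that array the median of the 40 genes was -0.12. Plasma cell markers averaged 8.81 to 9.09 in ImHABCL6/Uchl1 arrays and 8.81 to 9.13 in controls. T-cell markers averaged 5.27 to 5.53 in ImHABCL6/Uchl1 arrays and 5.26 to 5.41 in controls. Uchl1 itself read 5.96, 5.87 and 6.02 in ImHABCL6/Uchl1 arrays, against 5.01, 4.999 and 5.02 in controls, in the direction of the labels. Its difference was 0.94 (SE 0.12, limma unadjusted p = 5.29e-05, adjusted p = 0.638).

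Probe sets of a gene often disagreed in sign, and not only where their signal was weak. Of the 40 genes 26 had more than 1 probe set, and 32 of their 49 further probe sets had the same sign as the one used. Among the 27 of these 49 with a mean above that of the median gene, 20 had the same sign and 16 were lower in ImHABCL6/Uchl1 cells. All 4 probe sets of Rad51ap1 and all 4 of Brca1 were lower in ImHABCL6/Uchl1 cells, all 5 of Chek1 were lower (-0.45 to -0.0064), and all 4 of Parp1 were higher. Atm had probe sets at -0.033 and 0.29, and Topbp1 at -0.19 and 0.32. Averaging a gene's probe sets left 31 of the 40 lower and a median of -0.10.

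**Figure D5:**
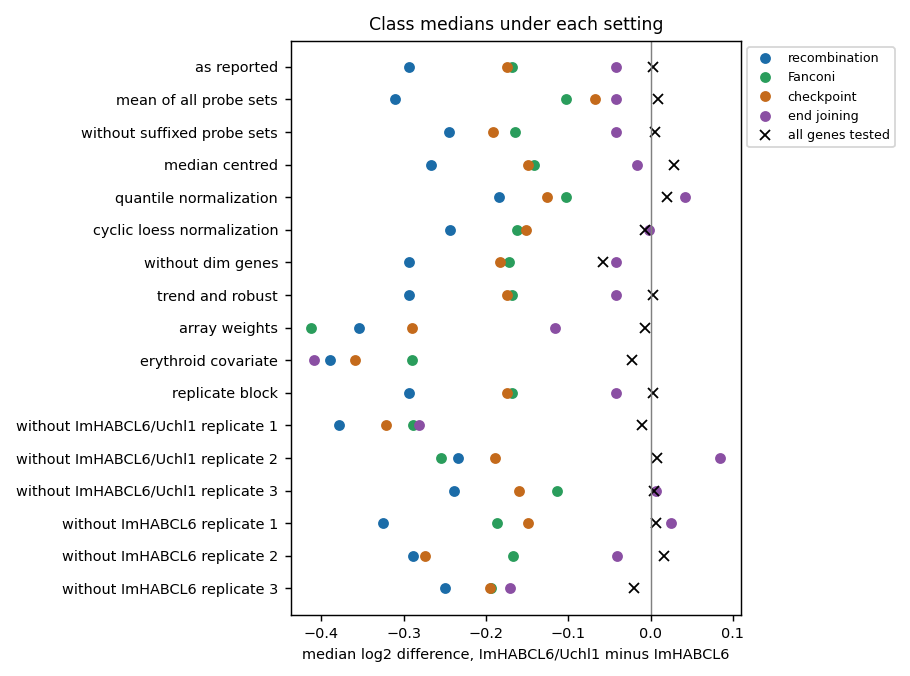
Median log2 difference (horizontal axis, ImHABCL6/Uchl1 minus ImHABCL6) of each class (coloured points) and of all genes tested (crosses) as reported and under each of 16 alternatives. The recombination median stays between -0.39 and -0.18 throughout, whereas the end joining median lies between -0.41 and 0.085.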

How the data were processed

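Per the labels' protocols, total RNA was labelled with biotin for 3′ in vitro transcription arrays. The authors deposited log2 expression values, 1 for each of 45101 probe sets on each array; the submitters' processing notes name RMA and Partek without versions or settings. RMA compresses differences of dim probe sets, and no detection calls were given.

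Of the probe sets 34945 had exactly 1 symbol in GEO's platform annotation, without the 64 Affymetrix controls, and listed symbols were updated through RefSeq synonyms. Each of 18193 genes took its probe set of highest mean, with no filter on dim genes. limma 3.58.1 (R 4.3.3; lmFit and eBayes, two-sided) compared the genotypes, with p-values adjusted by Benjamini-Hochberg over every gene and called under 0.05; intervals of 95% use its moderated standard errors. The steps were tested on simulated data with independent noise and effects larger than any member's difference reported here. Effects of the size seen for the members were not simulated. The design text counts mice, so arrays were taken as separate animals, 3 a group, which limits the precision. Every measured member is named, and values per array are given for those at an unadjusted p under 0.05, those whose groups did not overlap and the 3 of smallest p in each class. The members and lists were chosen with earlier results of these data known. Same-numbered arrays' deviations from their group means correlated across genes at 0.43, 0.19 and -0.26, so the numbers were not used as pairs. Alternatives were other probe set rules, normalizations, filters, variance models, array weights, an erythroid covariate, a replicate block and leaving out each array.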

Additional observations from a re-analysis of the deposited data

How the results depend on the processing

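Over 16 alternatives, 0 genes passed the adjusted threshold in limma, as in the reported fit, where 898 had an unadjusted p under 0.05; that number was between 387 (without ImHABCL6 replicate 3) and 2819 (array weights). Of the 40 genes 28 to 38 were lower when single arrays were left out, with medians from -0.31 to -0.12, and 30 to 37 under the other settings. The median of the 40 was -0.36 with the erythroid covariate; the cause was not tested. The replicate block kept 36 of 40 lower and the median at -0.17, and changed no adjusted call; 6 of the 40 then had an unadjusted p under 0.05. It leaves fewer degrees of freedom, and the numbers are not stated to pair mice. The filter on dim genes left 38 of the 40, without Fance and Atrip. Other scalings moved the median of all genes by under 0.1.

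For 25 of the 40 genes the direction held under every alternative that measured them; the other 15 changed sign in 50 of 636 values, all without an adjusted call. With the mean of all probe sets these were Xrcc3 (-0.066), Mre11a (0.065), Rad50 (0.20), Fancb (0.065), Atm (0.13), Atr (0.18) and Topbp1 (0.064), and without suffixed probe sets Xrcc3 (-0.20) and Mre11a (0.25). With median centring they were Top3a (0.0078) and Lig4 (0.0059), and after cyclic loess Atm (0.019) and Lig4 (0.031). After quantile normalization they were Rad54l (0.039), Rad50 (0.036), Brip1 (0.017), Atm (0.061), Xrcc5 (0.0051) and Lig4 (0.078), and the end joining median was 0.042. Array weights gave Xrcc3 -0.15, Mre11a 0.075, Xrcc5 0.055 and Parp1 -0.17. The erythroid covariate gave Rad54l 0.0056, Xrcc3 -0.025 and Parp1 -0.28. With single arrays left out, the ranges were -0.28 to 0.085 for the end joining median, -0.049 to 0.24 for Xrcc3, -0.17 to 0.14 for Top3a, -0.27 to 0.14 for Mre11a, -0.18 to 0.0076 for Rad50, -0.39 to 0.054 for Fanca, -0.37 to 0.081 for Fancb, -0.31 to 0.044 for Fancm, -0.17 to 0.023 for Brip1, -0.26 to 0.11 for Atm, -0.45 to 0.15 for Atr, -0.31 to 0.24 for Xrcc5, -0.25 to 0.16 for Lig4 and -0.20 to 0.12 for Parp1. The causes were not tested.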
